A study of Arabidopsis thaliana with 35 samples.

Results

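The 32 genes described here, from the Arabidopsis thaliana accession RRS-7, are named only by a locus code in the probe annotation. In its seedlings they were lower at 28 °C than at 20 °C in hypocotyl, cotyledon and root alike, after 3 h and 24 h. They were chosen by that pattern: for every gene that the probe annotation names by a locus code alone, the difference of group means, 28 minus 20 °C, had to be at or below −0.3 log2 in all 6 pairs of organ and time. The 32 genes are 0.271% of the 11799 genes named by a locus code, and 13356 genes with a named probe set were measured in all. Among genes of any name, 39 (0.292%) reached the threshold, of which 7 carry a symbol (2A6, ASPGA1, ATMPK8, LTI30, rps16, scpl35 and UGT73B4) and are not counted here. Ribosomal protein and class III peroxidase genes, known here from a list of their codes, were to be left out. Of those named by a locus code alone, 0 reached the threshold. That count does not cover genes with a symbol, such as rps16. Because the 6 differences chose the genes, they are given below in log2 units as a description, with ± the standard error of the fit and with no test.

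The measurements are log2 expression values from 35 Affymetrix arrays of total RNA. Seedlings of this natural accession, with no mutation or transgene named in the labels, grew for 5 days at 20 °C on agar plates in long days (16 h light, 8 h dark). All groups shared 4 days of stratification and photosynthetically active light of 120 µmol per square metre per second. Plates were then moved to 28 °C, 7 h after lights on (ZT 7), or stayed at 20 °C, and hypocotyls, cotyledons and roots were dissected 3 h later (ZT 10 of day 5) or 24 h later (ZT 7 of day 6). Each of the 12 groups has 3 arrays of pooled plant material, which the labels call biological replicates, except root at 28 °C after 3 h with 2 arrays here. Values ran from 2.2 to 14.3, array medians from 5.65 to 5.93, and replicates correlated at 0.992 to 0.997 across probe sets. At 20 °C the 3 measured root markers of 9 (EXPA7, EXPA18 and AT1G30870) stood at 7.94 to 10.5 in root, against 4.81 to 5.32 in cotyledon and 4.80 to 6.31 in hypocotyl. The 1 measured green-tissue marker of 9, the antenna protein gene LHCB4.2, stood at 5.14 in root, 10.4 in hypocotyl and 12.01 in cotyledon, and no marker of the hypocotyl was used. In dissected organs, fewer cells of a type and less RNA per cell cannot be told apart.

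Arabidopsis seedlings respond to moderate warmth with thermomorphogenesis, in which hypocotyls and petioles elongate and leaves are raised. Heat shock protein genes are induced by warmth, whereas cold-regulated genes, many of them encoding small protective or membrane proteins, are more active at low temperature. RefSeq lists all 32 loci as genes under their locus code, and the tables used here give them no product. The protein families named below are general background on these Arabidopsis loci for 25 of the 32 genes, and they were grouped after the values were known. The other 7 are given by their code alone.

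The median difference of the 32 genes was −0.61 in hypocotyl after 3 h and −0.54 after 24 h, −0.69 and −0.85 in cotyledon, and −0.73 and −0.73 in root, whereas the median over all 13356 genes lay between −0.02 and 0.03. Differences at or below −0.3 were found for 8.08% of all genes in hypocotyl after 3 h, 5.98% after 24 h, 11.4% and 12.5% in cotyledon, and 7.79% and 9.19% in root. Every 28 °C array lay below every 20 °C array for 32 of the 32 genes in hypocotyl after 3 h, where this held for 15.2% of all genes. It held for 31 genes in hypocotyl after 24 h (13.2% of all genes), for 31 and 31 in cotyledon (15.9% and 18.8%) and for 30 and 30 in root (19.5% and 18.8%). In all 6 pairs together, 26 of the 32 genes had no overlap, against 0.704% of all genes. The arrays overlapped in 1 pair for AT5G62360, AT1G53035, AT5G05960, AT2G41730 and AT1G06690, and in 2 pairs for AT3G05730. These counts follow in part from the choice of the genes. Cell type markers also differed between the temperatures. The green-tissue marker LHCB4.2 was higher at 28 °C after 3 h in each organ, by 1.02 in hypocotyl, 0.97 in cotyledon and 0.66 in root (limma adjusted p = 5.52e-06, 2.86e-06 and 0.00503), and did not pass after 24 h (0.35, 0.14 and 0.12). The root marker EXPA7 was 0.59 and 0.46 higher in root (limma adjusted p = 0.0149 and 0.0223), and the other 2 root markers passed in 0 pairs. The part of these shifts in the differences of the 32 genes was not tested.

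**Figure D1:**
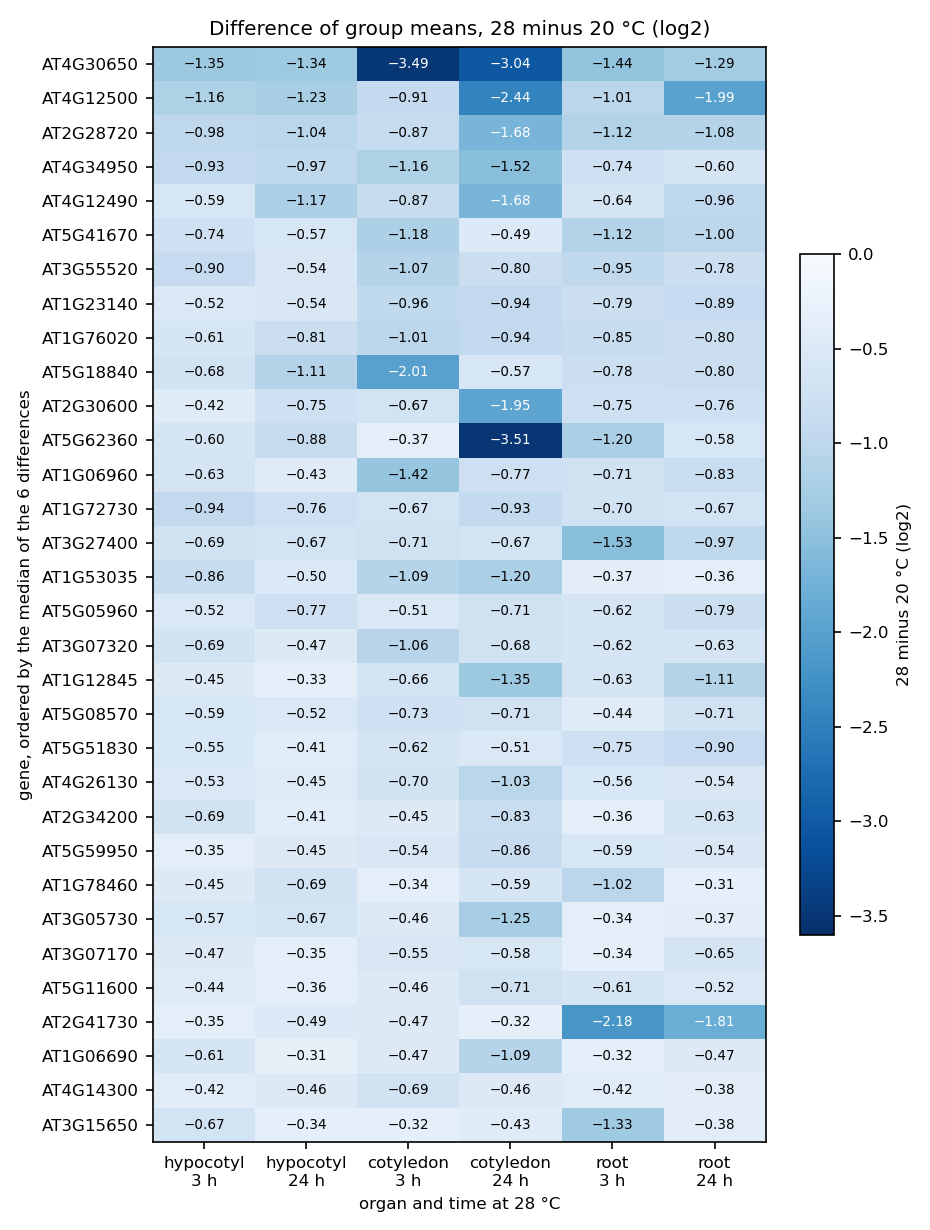
Difference of group means, 28 minus 20 °C, in log2 units for each of the 32 genes (rows, ordered by the median of their 6 differences) in each organ and time (columns), with darker blue for a lower value at 28 °C. Most cells lie near the column medians of −0.54 to −0.85. The darkest cells are AT4G30650 in cotyledon at both times, AT5G62360 and AT4G12500 in cotyledon after 24 h, and AT2G41730 in root after 3 h.

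Differences of −1 or lower, meaning 2-fold or more below 20 °C, were seen for 2 genes in hypocotyl after 3 h and 5 after 24 h (0.150% of all genes at each time), for 9 and 12 in cotyledon (0.936% and 1.28%), and for 9 and 6 in root (0.442% and 0.532%). Averaged over both times, the difference was most negative in cotyledon for 24 of the 32 genes, in root for 7 and in hypocotyl for 1. It was more negative after 24 h than after 3 h for 15 genes in hypocotyl, 19 in cotyledon and 15 in root. These organ and time counts were not made over all genes. The share of all genes at or below −1 was also largest in cotyledon.

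Small secreted and membrane proteins are encoded by 5 of the genes, among them those with the lowest median differences. AT4G30650 encodes a small membrane protein of the RCI2/PMP3 family, whose members are known from cold and salt responses. In cotyledons its values after 3 h were 7.05, 7.38 and 6.97 at 28 °C, against 10.54, 10.68 and 10.65 at 20 °C. After 24 h they were 5.83, 5.56 and 6.24 at 28 °C, against 8.95, 8.61 and 9.20 at 20 °C. The groups were far apart at both times, with differences of −3.49 ± 0.14 and −3.04 ± 0.14, which are 11.2-fold and 8.23-fold lower at 28 °C. Hypocotyl values after 3 h were 9.49, 9.59 and 9.38 at 28 °C, against 10.94, 10.95 and 10.63 at 20 °C, and after 24 h they were 8.57, 8.82 and 8.86, against 10.05, 10.02 and 10.19. Root values after 3 h were 8.84 and 8.57 at 28 °C, against 10.29, 10.01 and 10.13 at 20 °C, and after 24 h they were 8.48, 8.31 and 8.31, against 9.73, 9.69 and 9.56. In these organs the differences of AT4G30650 were of similar size, between −1.29 and −1.44. Its neighbour in the RefSeq gene order, AT4G30660, was also measured. It showed −0.58 and −0.60 in hypocotyl, −0.97 and −1.96 in cotyledon, and −0.20 and −0.37 in root after 3 h and 24 h. It missed the threshold only in root after 3 h. Such neighbours of the 32 genes number 64, with AT4G12495 counted for both AT4G12490 and AT4G12500. Of these, 35 were measured and 0 reached the threshold in all 6 pairs. Among all genes 0.292% did, and at that share 35 genes are too few for the 0 to be informative.

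AT4G12500 and AT4G12490 encode lipid-transfer-type proteins of the EARLI1 group, small proteins of the cell periphery, and lie close to each other, with 1 gene between them. AT4G12500 measured 4.90, 4.75 and 4.42 in cotyledons after 24 h at 28 °C, against 7.23, 7.23 and 6.93 at 20 °C, and 3.63, 3.87 and 3.63 in roots after 24 h at 28 °C, against 5.74, 5.60 and 5.77 at 20 °C. These are differences of −2.44 ± 0.17 and −1.99 ± 0.17, and its other 4 differences ran from −0.91 to −1.23. For AT4G12490 the cotyledon values after 24 h were 8.72, 8.16 and 7.02 at 28 °C, against 9.69, 9.75 and 9.48 at 20 °C. The 28 °C cotyledon arrays differed by more than a log2 unit among themselves, and the difference was −1.68 ± 0.23, while its other 5 ran from −0.59 to −1.17. Genes of this group have similar sequences, so a shared signal between their probe sets was not tested.

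AT5G05960, another lipid-transfer-type protein gene, had 6 differences between −0.51 and −0.79. In cotyledon after 3 h its values were 3.39, 3.90 and 4.02 at 28 °C, against 3.67, 4.52 and 4.64 at 20 °C, near the low end of the scale, and the groups overlapped. AT3G05730 encodes a defensin-like protein, a class of small secreted peptides. It measured 10.94, 10.86 and 10.94 in cotyledons after 24 h at 28 °C, against 12.14, 12.07 and 12.27 at 20 °C, a difference of −1.25 ± 0.16. Its root values were also near the low end, at 3.34 and 4.33 after 3 h at 28 °C, against 4.03, 4.12 and 4.39 at 20 °C. That difference of −0.34 ± 0.18 rests on the first 28 °C array and became 0.15 without it and −0.84 without the second.

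**Figure D2:**
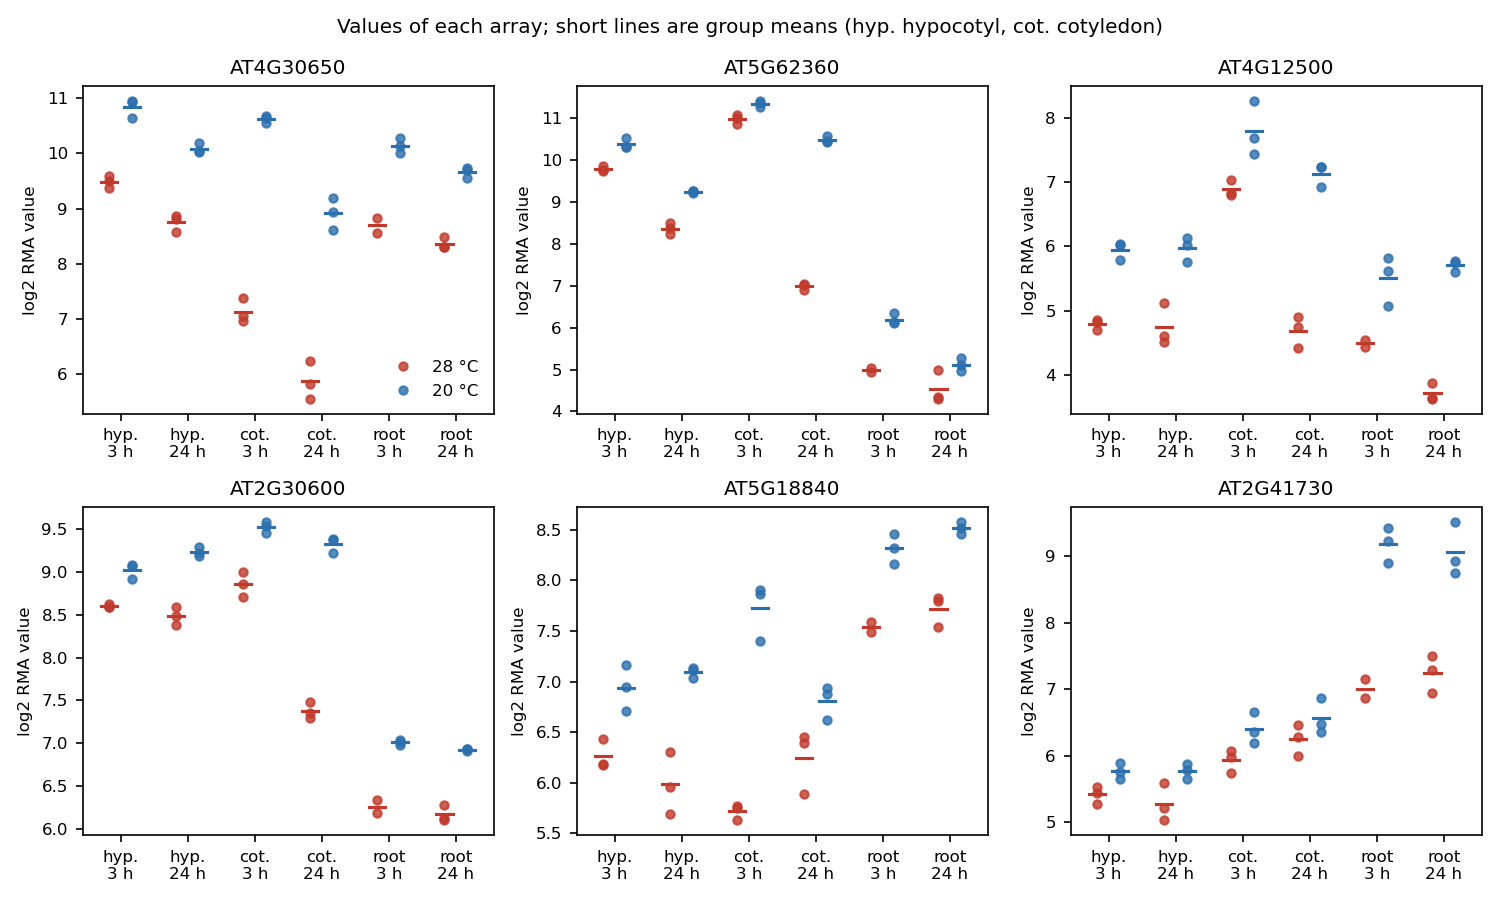
Log2 RMA values of each array for AT4G30650, AT5G62360, AT4G12500, AT2G30600, AT5G18840 and AT2G41730 by organ and time, with 28 °C (red, left) and 20 °C (blue, right) and short lines at the group means of 3 arrays (2 in root at 28 °C after 3 h). The red points lie below the blue ones in each pair except where they overlap in AT5G62360 (root, 24 h) and AT2G41730 (cotyledon, 24 h).

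Cell wall proteins are encoded by 3 of the genes, and the organ with the lowest value differed among them. AT5G62360 encodes a protein of the invertase and pectin methylesterase inhibitor family, which restrains the enzymes that modify pectin. In cotyledons after 24 h it measured 7.04, 7.01 and 6.90 at 28 °C, against 10.57, 10.44 and 10.47 at 20 °C, and after 3 h 11.01, 10.86 and 11.09 at 28 °C, against 11.37, 11.42 and 11.27 at 20 °C. The differences were −3.51 ± 0.12 (11.4-fold lower) after 24 h and −0.37 ± 0.12 after 3 h, the widest gap between the times in the set. In root its values after 24 h were 4.98, 4.31 and 4.34 at 28 °C, against 5.12, 4.96 and 5.28 at 20 °C, and these overlapped. The pectate lyase gene AT3G27400 measured 4.98 and 4.74 in roots after 3 h at 28 °C, against 6.40, 6.30 and 6.46 at 20 °C, a difference of −1.53 ± 0.14. Its differences elsewhere were −0.67 to −0.97. AT3G07320, a glucanase-type glycoside hydrolase of family 17, had −1.06 ± 0.13 in cotyledon after 3 h and −0.47 to −0.69 in the other pairs.

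Around carbon metabolism and sugar transport, 6 genes were grouped. The family names of AT4G34950 and AT1G06690 do not by themselves place them there. AT5G18840, a sugar transporter of the ERD6-like group, measured 5.77, 5.75 and 5.63 in cotyledons after 3 h at 28 °C, against 7.87, 7.91 and 7.40 at 20 °C. After 24 h its cotyledon values were 6.45, 6.39 and 5.89 at 28 °C, against 6.62, 6.88 and 6.94 at 20 °C. The groups were closer after 24 h (−0.57 ± 0.15) than after 3 h (−2.01 ± 0.15). The 20 °C mean was lower at 24 h (6.81, against 7.72 at 3 h), and the 28 °C mean was higher (6.24, against 5.72). AT4G34950, a transporter of the major facilitator superfamily, measured 8.95, 8.86 and 8.73 in cotyledons after 24 h at 28 °C, against 10.36, 10.29 and 10.47 at 20 °C, a difference of −1.52 ± 0.09, with −0.60 to −1.16 in the other pairs. AT5G41670 encodes a 6-phosphogluconate dehydrogenase, an enzyme of the pentose phosphate pathway. It measured 8.13, 8.53 and 8.14 in cotyledons after 3 h at 28 °C, against 9.42, 9.42 and 9.50 at 20 °C, and 10.21 and 10.04 in roots after 3 h at 28 °C, against 11.31, 11.13 and 11.31 at 20 °C. These differences were −1.18 ± 0.11 and −1.12 ± 0.12, and the smallest, in cotyledon after 24 h, was −0.49 ± 0.11. The pyruvate kinase gene AT5G08570, for the last step of glycolysis, ran from −0.44 to −0.73, the pfkB-type carbohydrate kinase AT5G51830 from −0.41 to −0.90, and the aldo/keto reductase type oxidoreductase AT1G06690 from −0.31 to −1.09.

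RNA-associated proteins are encoded by 4 of the genes. AT1G06960, an RNA-binding protein with an RRM domain, had its lowest difference in cotyledon after 3 h, with 5.54, 5.79 and 5.62 at 28 °C, against 7.03, 6.95 and 7.24 at 20 °C (−1.42 ± 0.11). AT1G72730, an RNA helicase of the eIF4A type, which unwinds mRNA for translation, ran from −0.67 to −0.94. AT5G59950, an adaptor of mRNA export of the ALY type, ran from −0.35 to −0.86, and the RRM protein AT4G14300 from −0.38 to −0.69. Among these 4 genes only AT1G06960 had a difference below −1.

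A further 4 genes were grouped as chromatin or protein-interaction factors. AT2G28720 encodes a histone H2B, a core protein of the nucleosome. It measured 6.87, 7.23 and 7.16 in cotyledons after 24 h at 28 °C, against 8.64, 8.70 and 8.95 at 20 °C, a difference of −1.68 ± 0.14, and its other differences ran from −0.87 to −1.12. Histone H2B genes are alike in sequence, so the probe set may also read others. AT3G55520, a peptidyl-prolyl isomerase of the FKBP type, had −1.07 ± 0.11 in cotyledon after 3 h and −0.54 to −0.95 elsewhere. AT2G30600 carries a BTB/POZ domain and measured 7.35, 7.48 and 7.30 in cotyledons after 24 h at 28 °C, against 9.23, 9.38 and 9.38 at 20 °C (−1.95 ± 0.08), with −0.42 to −0.76 in the other pairs. It is the 1 gene of the 32 with a second probe set, which gave −0.29 and −0.84 in hypocotyl, −0.67 and −2.04 in cotyledon, and −0.39 and −0.57 in root after 3 h and 24 h. The sterile alpha motif protein AT3G07170 ran from −0.34 to −0.65.

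Another 3 genes were grouped by lipid or heme binding and hydrolysis. The C2 domain protein AT1G23140 ran from −0.52 to −0.96. AT3G15650, an alpha/beta hydrolase, measured 6.31 and 6.28 in roots after 3 h at 28 °C, against 7.56, 7.73 and 7.58 at 20 °C (−1.33 ± 0.14), and −0.32 to −0.67 in the other pairs. The SOUL heme-binding protein AT1G78460 had −1.02 in root after 3 h and −0.31 to −0.69 elsewhere.

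Of the 7 genes given by code alone, AT2G41730 had the most uneven pattern. Its root values were 6.87 and 7.14 after 3 h at 28 °C, against 9.23, 9.42 and 8.90 at 20 °C, and 7.29, 7.50 and 6.95 after 24 h at 28 °C, against 8.75, 8.92 and 9.51 at 20 °C. The root differences were −2.18 ± 0.20 and −1.81 ± 0.18, against −0.32 to −0.49 in the other organs, where its 24 h cotyledon arrays overlapped. It is the 1 gene of the 32 whose probe set name carries the maker's suffix for possible cross-hybridisation (_x_at), and cross-binding of the other probe sets was not tested. AT1G53035 ran from −0.36 in root after 24 h to −1.20 in cotyledon after 24 h, and AT1G12845 from −0.33 to −1.35. AT1G76020 ran from −0.61 to −1.01, AT4G26130 from −0.45 to −1.03, AT2G34200 from −0.36 to −0.83 and AT5G11600 from −0.36 to −0.71.

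The genes nearest the threshold on its inner side, by their smallest difference, were AT1G06690 (−0.31), AT1G78460 (−0.31), AT2G41730 (−0.32) and AT3G15650 (−0.32). Just outside lay AT2G36320 (−0.299), AT2G18940 (−0.295), AT2G31010 (−0.292) and AT1G44920 (−0.289), close to them in value. Under omission of 1 array at a time, 22 of the 32 genes stayed at or below the threshold in all 35 omissions.

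Lists of genes from pathways around warmth, cold and ribosome assembly were compared in the same 6 pairs with limma (adjusted p under 0.05). The lists were chosen with earlier results of these data known, so their calls are a description and not an independent test. None of the 32 genes is in them. However, LTI30 among the cold-regulated genes and UGT73B4 among the glucosyltransferases reached the threshold of the 32 genes in all 6 pairs. They are not counted among the 32 because they carry a symbol. At 28 °C, limma called 6.99% of the measured genes up and 7.64% down in hypocotyl after 3 h, 5.08% and 4.58% after 24 h, 10.3% and 12.1% in cotyledon after 3 h, 15.0% and 13.4% after 24 h, 5.38% and 5.35% in root after 3 h, and 8.39% and 9.31% after 24 h. All 5 measured heat shock genes of 8 were higher in every pair, with medians of 1.70 and 1.83 in hypocotyl, 1.96 and 3.21 in cotyledon, and 4.54 and 3.26 in root. The FKBP-type co-chaperone gene ROF2 (AT5G48570) was 5.26 and 4.38 higher in root. Of 6 measured cold-regulated genes of 19, 5 and 6 were lower in hypocotyl, 5 and 6 in cotyledon, and 3 and 1 in root, with medians of −1.003, −0.65, −1.57, −1.86, −0.57 and 0.04 in that order. The dehydrin gene LTI30, which protects cells in the cold, was at −1.03, −1.87, −0.69, −2.66, −1.38 and −2.34, and COR27 at −1.55, −0.71, −1.76, −1.19, −1.16 and −0.03. COR15B, a cryoprotective chloroplast protein gene, was at 0.10 and COR28 at 0.17 in root after 24 h.

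Ribosome assembly factors, measured for 16 of 43, were higher in 1 pair and lower in others. They were lower for 15 in hypocotyl after 3 h, 5 after 24 h, 15 in cotyledon after 3 h, 0 after 24 h, and 6 and 6 in root. In cotyledon after 24 h, 10 were higher, and the median was 0.40, against −0.60, −0.27, −1.01, −0.32 and −0.27 in the other pairs. EBP2, a nucleolar assembly factor, was at −0.97 in hypocotyl after 3 h and 0.05 in cotyledon after 24 h. The 2 measured subunits of RNA polymerase I, NRPA1 and NRPA2, were at 0.81 and 0.998 in cotyledon after 24 h and at −1.45 and −1.15 after 3 h. Counts of these lists depended on single arrays: the 5 in hypocotyl after 24 h became 3 without 20 °C replicate 1, 20 °C replicate 3 or 28 °C replicate 1 and 8 without 20 °C replicate 2, and the 6 in root after 3 h became 1 without 28 °C replicate 2 and 3 without 20 °C replicate 3. Of 5 measured genes of tau glutathione transferases and glucosyltransferases of 11, 3, 2, 0, 1, 4 and 4 were lower in the same order of pairs, and 1 was higher at each time in cotyledon. The 3 in hypocotyl after 3 h became 1 without 20 °C replicate 2. In cotyledon the 0 after 3 h became 1 without 20 °C replicate 3, without 28 °C replicate 2 or after renewed quantile normalisation, and the 1 after 24 h became 2 without 20 °C replicate 1 or with median centring. Of 2 measured DNA replication genes of 9, 1 was lower in hypocotyl and 2 in cotyledon after 3 h, and 1 was higher in cotyledon after 24 h. The 1 in hypocotyl became 0 without replicate 1 of either temperature, and 2 without 28 °C replicate 3, with trend and robust moderation, with median centring or after renewed quantile normalisation.

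**Figure D3:**
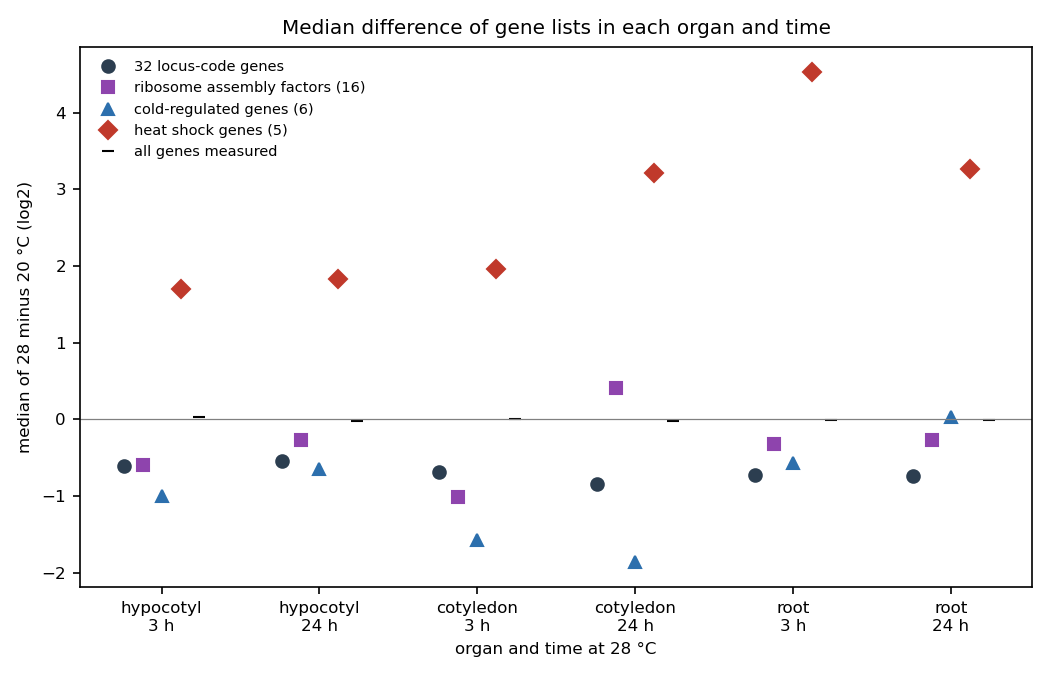
Median difference, 28 minus 20 °C in log2 units, of the 32 locus-code genes, 3 of the gene lists and all genes in each organ and time. Heat shock genes lie above 0 in each pair and the 32 genes lie between −0.54 and −0.85, while ribosome assembly factors are at 0.40 in cotyledon after 24 h.

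Among the 20 °C arrays, organ levels of the 32 genes were compared, a contrast the choice of genes did not use although these arrays entered it. The 32 genes did not share an organ of highest level at 20 °C. Root was higher than cotyledon for 14, lower for 15, and 3 did not pass the test, against 39.1% and 37.5% of all genes (limma, adjusted p under 0.05 over 13356 genes). Root was higher than hypocotyl for 15 and lower for 16 (35.9% and 24.5% of all genes), and hypocotyl was higher than cotyledon for 8 and lower for 15 (30.2% and 36.1%). The median difference of the 32 genes was 0.05, −0.23 and −0.14 in these contrasts, against −0.03, 0.03 and −0.06 for all genes. Root was above both other organs for 13 genes, cotyledon for 9, hypocotyl for 3, and 7 had no organ above both. The shares of all genes in these classes were not computed, so the counts describe the 32 genes alone.

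The defensin-like gene AT3G05730 averaged 3.98 ± 0.35 in root and 12.1 ± 0.14 in cotyledon (SD, n = 6 each), a measured difference of −8.17 (limma adjusted p = 4.81e-34). The lipid-transfer-type gene AT5G05960 ran the other way, with 10.9 ± 0.080 in root and 4.32 ± 0.34 in cotyledon, measured as 6.63 higher (limma adjusted p = 5.77e-32). The lower level of each pair lies near the low end of the scale, where 25% of genes average under 3.85. Both differences may be understated there, which was not tested. AT5G62360 was 5.27 lower in root than in cotyledon, AT4G12490 4.09 lower and AT1G06690 3.86 lower, whereas the helicase gene AT1G72730 was 3.55 higher. AT2G41730, whose difference between temperatures was deepest in root, was 2.64 ± 0.12 higher in root than in cotyledon at 20 °C (limma adjusted p = 2.72e-19). The 20 °C root arrays enter both of these differences, so they are not independent. AT4G30650, whose difference between temperatures was deepest in cotyledon, had 9.90 ± 0.28 in root and 9.77 ± 0.95 in cotyledon over both times (SD, n = 6 each), and this mean difference did not pass the test. The order of these organs was not the same at the 2 times: at 3 h it averaged 10.14 in root and 10.62 in cotyledon, and at 24 h 9.66 in root and 8.92 in cotyledon. The change between harvests differed between them by 1.23 ± 0.20 (limma adjusted p = 4.04e-05).

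**Figure D4:**
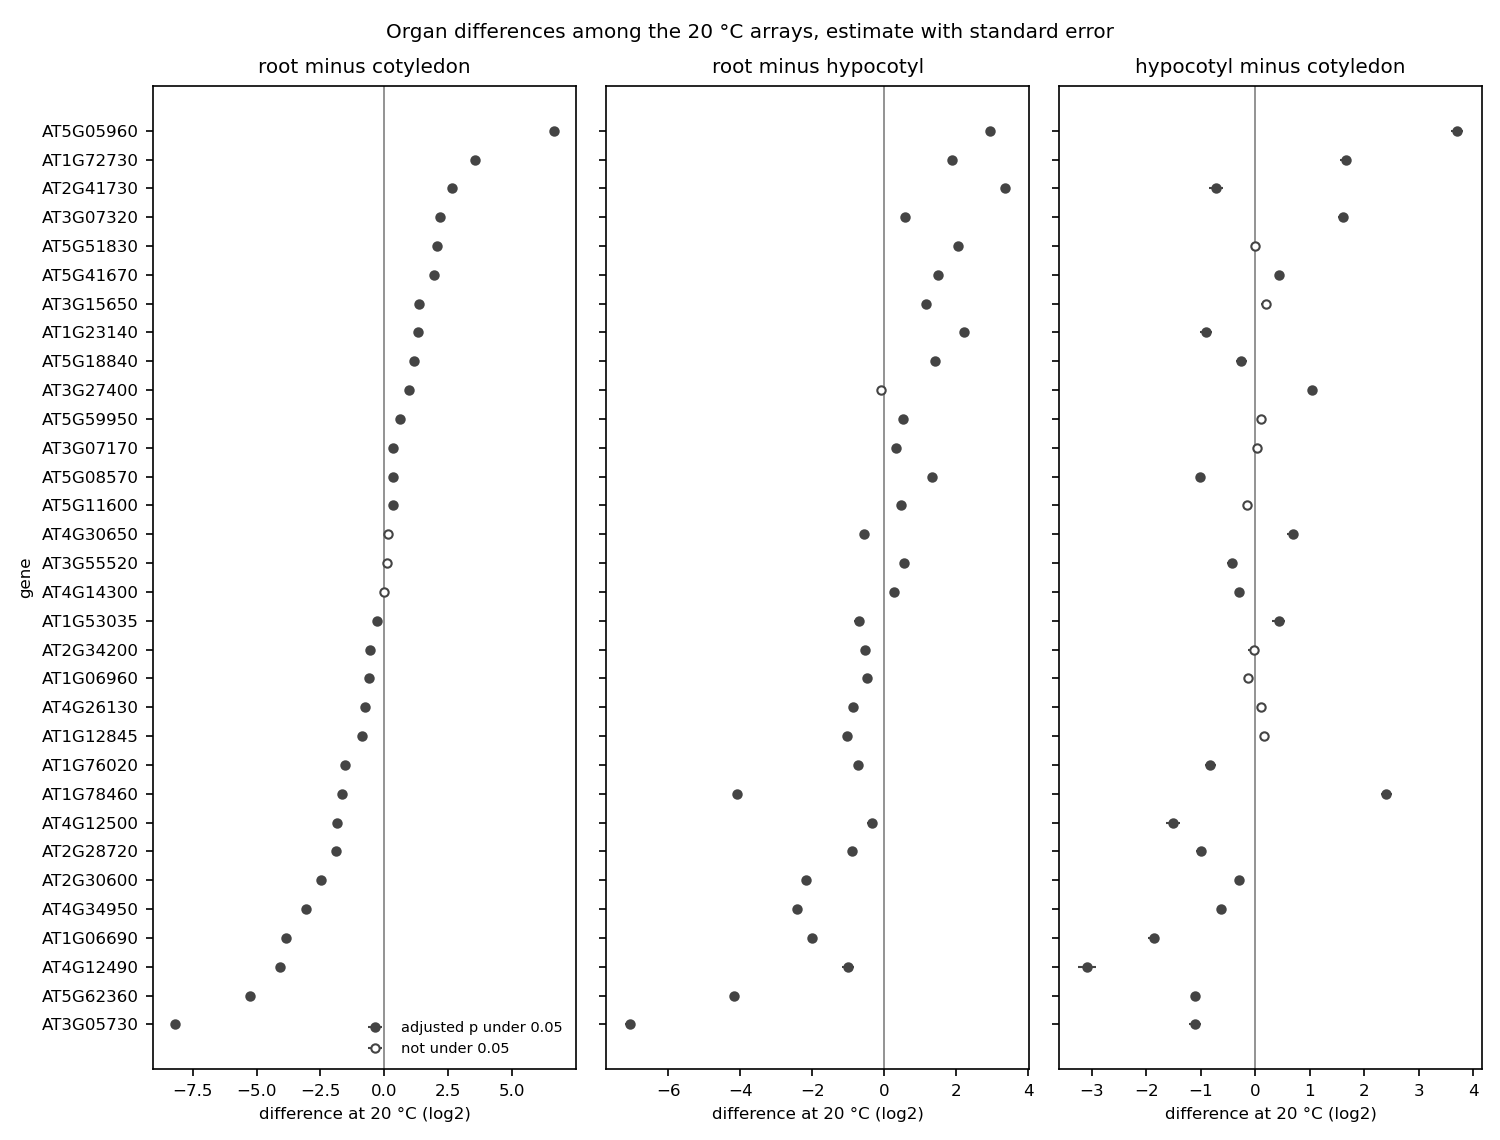
Difference between organs among the 20 °C arrays in log2 units, first organ minus second, with standard errors for each of the 32 genes, ordered by root minus cotyledon. Filled points have a limma adjusted p under 0.05, and the values for root minus cotyledon run from −8.17 to 6.63.

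Harvest time alone was compared among the 20 °C arrays, 24 h minus 3 h. The later harvest was at ZT 7 of day 6 and the earlier at ZT 10 of day 5, so time of day and age cannot be told apart. In cotyledon 11 of the 32 genes were lower and 1 was higher at the later harvest (10.7% and 6.82% of all genes), in hypocotyl 4 were lower and 0 higher (0.861% and 1.08%), and in root 2 were lower and 0 higher (0.255% and 0.165%), all by limma. At an unadjusted p under 0.05, 1 gene was higher and 7 were lower in hypocotyl (6.82% and 6.30% of all genes), 2 and 13 in cotyledon (11.5% and 15.6%), and 1 and 5 in root (3.59% and 3.72%). AT1G53035 measured 5.80, 5.83 and 6.14 in cotyledons at 24 h, against 7.83, 7.63 and 7.76 at 3 h, a change of −1.82 ± 0.17 (limma adjusted p = 8.86e-10), and it was also lower in hypocotyl (−0.94 ± 0.17). AT4G30650 changed by −1.70 ± 0.14 in cotyledon (limma adjusted p = 3.38e-11) and −0.75 ± 0.14 in hypocotyl, and the transporter gene AT4G34950 by −1.20 ± 0.09 and −0.54 ± 0.09. AT5G62360 was lower in all 3 organs, with −0.86 ± 0.12 in cotyledon, −1.14 ± 0.12 in hypocotyl and −1.07 ± 0.12 in root. The oxidoreductase gene AT1G06690 was the 1 gene higher in cotyledon, by 0.59 ± 0.15 (limma adjusted p = 0.0044). In root AT1G78460 changed by −0.64 ± 0.15 (limma adjusted p = 0.039), a call that did not hold in 5 of the 6 omissions of an array, where the adjusted p ran from 0.0804 to 0.356.

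The change between harvests was then compared between organs, again at 20 °C and with limma. It differed between root and cotyledon for 5 of the 32 genes (10.2% of all genes), between hypocotyl and cotyledon for 6 (5.05%), and between root and hypocotyl for 0 (0.217%), where 5 genes had an unadjusted p under 0.05 (9.07% of all genes). AT5G18840 measured 6.62, 6.88 and 6.94 in cotyledons at 24 h, against 7.87, 7.91 and 7.40 at 3 h, and in roots 8.57, 8.46 and 8.52 at 24 h, against 8.17, 8.46 and 8.32 at 3 h. With single arrays omitted, the count for hypocotyl and cotyledon ran from 4 to 6. The cotyledon groups of AT5G18840 did not overlap, and the change was 1.11 ± 0.21 higher in root than in cotyledon (limma adjusted p = 0.000285).

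**Figure D5:**
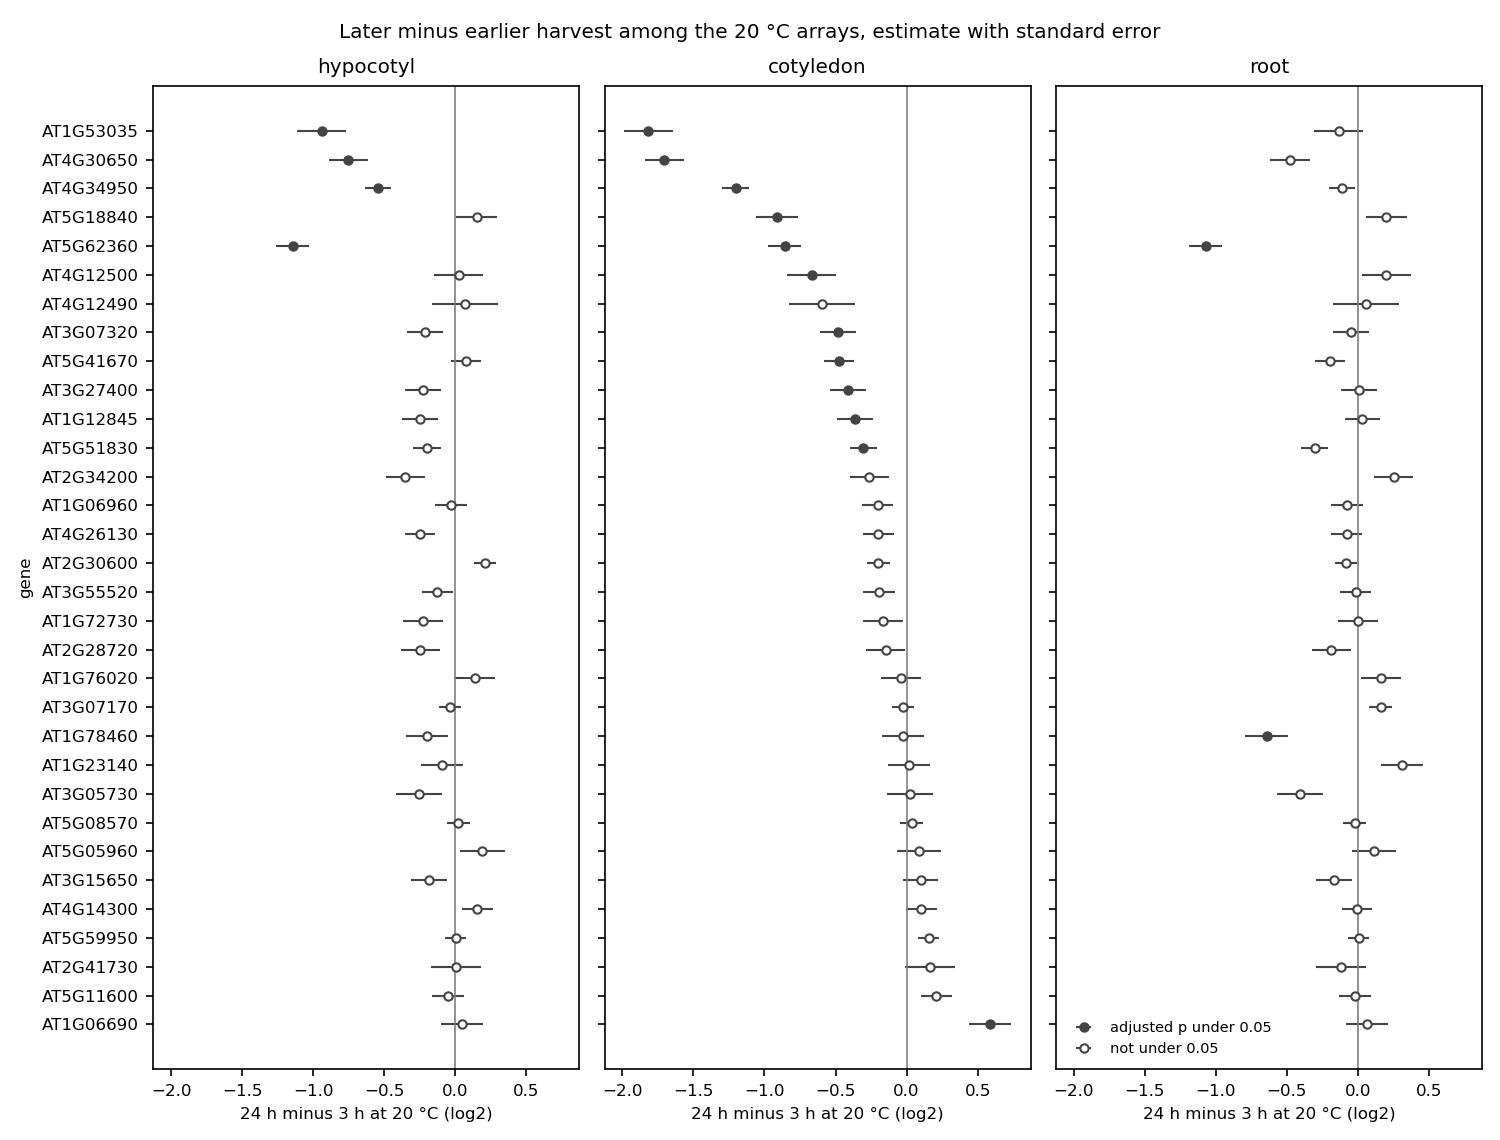
Change at 20 °C between harvests, 24 h minus 3 h in log2 units with standard errors, for the 32 genes in each organ, ordered by the cotyledon value. Filled points have a limma adjusted p under 0.05 and number 4 in hypocotyl, 12 in cotyledon and 2 in root.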

How the data were processed

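Total RNA of 35 samples was hybridised to Affymetrix arrays, and the log2 values used are those the authors deposited, 1 column per array. The values were made with RMA and limma per the submitters' processing notes, with no versions given. Which arrays were normalised together, and the genome build, are not given in the sources used here. RMA normalises array distributions, so a shift of all genes would be lost. Of 22746 probe sets, 13513 name 1 gene, 503 several and 8730 are unnamed here. A gene is called measured only if a probe set names it alone, so other genes may lie on the remaining probe sets. Of 146 genes with several probe sets, the one with the highest mean was used. Members were matched to RefSeq TAIR10.1 by code (32 of 32).

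Group means of the 12 groups were fitted to all 35 arrays with limma 3.58.1 in R 4.3.3 (23 residual degrees of freedom). P-values are two-sided, with Benjamini-Hochberg adjustment over 13356 genes within a comparison, and a gene passed at 0.05. The fit was checked on simulated data. The number of arrays limits precision: the median standard error was 0.105 for a difference between 2 groups of 3 arrays. Errors are standard errors unless marked SD.

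Named genes were the 24 with the lowest median of the 6 differences, the 4 nearest the threshold on each side, and the 3 most positive and negative passing members of each test; of each list, up to 4 genes with the largest median. The other members (AT3G07170, AT5G11600 and AT4G14300 among them) are named to account for all 32. Members and lists were chosen with earlier results of these data known. Product-name groups and promoter motifs were planned but need tables not used here, and no sequence is printed. Alternatives were other thresholds, scalings, probe set choices and filters, the replicate number as a block, and omission of single arrays.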

Additional observations from a re-analysis of the deposited data

Results flagged for a closer look

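Differences between organs in the change from the earlier to the later harvest at 20 °C were tested with limma, because the effect of the same contrast can differ between organs. Between root and cotyledon 5 of the 32 genes passed (10.2% of all genes), each with a smaller decline or none in root: AT4G30650 with a difference of 1.23 (adjusted p = 4.04e-05), AT4G12500 with 0.87 (0.0177), AT4G34950 with 1.09 (5.14e-07), AT5G18840 with 1.11 (0.000285) and AT1G53035 with 1.68 (9.64e-06). Between hypocotyl and cotyledon 6 passed (5.05% of all genes): AT4G30650 with 0.95, AT4G34950 with 0.66, AT5G41670 with 0.55, AT5G18840 with 1.06, AT2G30600 with 0.41 and AT1G53035 with 0.88, at adjusted p-values of 0.00107 to 0.0285. AT5G18840 changed by 0.20 in root and 0.15 in hypocotyl, against −0.91 in cotyledon. Between root and hypocotyl 0 passed (0.217% of all genes), with 5 at an unadjusted p under 0.05 (9.07% of all genes). With 1 array omitted, 4 of these calls were lost (all arrays at 20 °C). AT4G12500 was at 0.63 without cotyledon 3 h replicate 2, 0.77 without cotyledon 24 h replicate 3 and 0.65 without root 3 h replicate 2, with limma adjusted p-values up to 0.0879. In the hypocotyl comparison, AT5G41670 was at 0.49 to 0.54 without hypocotyl 3 h replicate 3, hypocotyl 24 h replicates 1 or 3, cotyledon 3 h replicate 3 or cotyledon 24 h replicate 2 (adjusted p up to 0.0774). AT2G30600 was at 0.35 to 0.38 without hypocotyl 3 h replicate 1, hypocotyl 24 h replicate 2, cotyledon 3 h replicate 2 or cotyledon 24 h replicate 1 (up to 0.0833). AT1G53035 was at 0.71 to 0.87 without hypocotyl 3 h replicate 3, hypocotyl 24 h replicates 2 or 3, cotyledon 3 h replicates 1 or 3 or cotyledon 24 h replicates 1 or 2 (up to 0.116). The cotyledon arrays enter both sets of differences, so the sets are not independent. Time of day and age cannot be told apart in these changes.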

How the results depend on the processing

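The number of genes was 32 at −0.3 and 86 at −0.2, 50 at −0.25, 24 at −0.35, 19 at −0.4 and 12 at −0.5 log2. It was 36 with each array centred on its median and 34 after renewed quantile normalisation, of which 30 were shared, and 30 to 37 with 1 array omitted. Without root 28 °C 3 h replicate 1, the root 3 h difference of AT3G05730 was 0.15 instead of −0.34, and without replicate 2 it was −0.84. With median centring, hypocotyl minus cotyledon of AT3G07170 was −0.18 (limma adjusted p = 0.00303), against 0.03 and no call. That of AT1G53035 was 0.22 (limma adjusted p = 0.0867), against 0.43 and a call that placed hypocotyl above both other organs. Calls in this contrast thus depend on the scaling. The 2 genes lower at the later harvest in root became 1 when only the compared arrays were fitted and 1 to 2 with an array omitted. In cotyledon the 1 higher gene became 2 without 20 °C 24 h replicate 3 (range 1 to 2), and the 11 lower genes 8 to 11. Single genes kept direction and side of the threshold in 3193 results, lost the call in 60 and gained one in 27. List medians moved for ribosome assembly in root after 3 h (−0.34 to −0.21), and for tau glutathione transferases and glucosyltransferases in cotyledon after 24 h (−0.41 to −0.14) and root after 3 h (−1.38 to −0.998), with 1 array omitted. These list and organ-difference alternatives were chosen after seeing the data. The replicate numbers were not used to pair the samples in the main fit. At 20 °C, 2 of 27 correlations of same-numbered arrays exceeded 0.1 (−0.12 to 0.27). Between 28 and 20 °C, 4 of 17 did (−0.20 to 0.15), among them both root pairs at 3 h (0.14 and 0.10). With so few arrays per group, these correlations cannot exclude that same-numbered arrays share a source of variation. With the replicate number as a block, the genes lower at the later harvest in root became 1 and the gene number stayed at 32. The cause of these shifts was not tested. Dim values, as in root for AT3G05730, limit the smallest differences.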
